A study of Mus musculus with 12 samples.

Results

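The 8 genes described here are Pnpla3, Clec3b, Matn4, Kcnj9, Tmem87a, Epdr1, Alox8 and 4921524J17Rik, out of 12393 genes measured in mouse brain. They were picked by their shifts in brains that lack the type I interferon receptor gene Ifnar1, in the IFNARko arrays, in the USP18ko:IFNARko arrays or in both, and 11 probe sets out of 22690 are annotated to them. Because their signals in those arrays chose them, their differences from WT there are given as a description with no test. The question followed through the text is which of the shifts occurred in both groups without the receptor gene.

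RNA of whole-brain lysates from adult, untreated mice kept free of specific pathogens was measured on 12 Affymetrix 3' expression arrays, 3 for each of 4 genotypes. IFNARko mice lacked Ifnar1, USP18ko:IFNARko mice lacked both Ifnar1 and Usp18, USP18ko mice lacked Usp18, and WT mice carried both genes. Neither the deletion strategy, the strain and sex of the mice nor their exact age is in the labels, which also leave unsaid whether the 3 samples of a genotype were 3 animals. The p-values then speak only of variation among these samples, and that variation may be technical. In lysates of a whole organ, fewer cells of a type and less RNA per cell cannot be told apart.

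IFNAR1 is a chain of the receptor for type I interferons, whose signal runs through JAK kinases and STAT transcription factors to interferon-stimulated genes. USP18 binds the other receptor chain, restrains that signal and also removes the ubiquitin-like protein ISG15 from other proteins. The 8 genes are not classical interferon targets, and their products do unrelated work. Pnpla3 encodes a lipid-droplet enzyme of the patatin-like phospholipase family, Alox8 an arachidonate lipoxygenase, Epdr1 a secreted and lysosomal ependymin-related glycoprotein, and Tmem87a a multipass membrane protein of the Golgi. Kcnj9 encodes Kir3.3, a subunit of the G protein-gated potassium channels of neurons. Clec3b encodes tetranectin, a secreted C-type lectin that binds plasminogen, and Matn4 encodes the extracellular matrix protein matrilin 4. No role is given here for 4921524J17Rik, a gene that RefSeq annotates as protein-coding.

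The array libraries were checked before the genes were described. Ifnar1 fell by 1.40 in IFNARko against WT (SE 0.17, adjusted p = 0.0199, limma) and by 1.23 in USP18ko:IFNARko (SE 0.17, adjusted p = 0.0394), and its 6 receptor-less arrays all read below the other 6. The IFNARko call held in 15 of 23 alternatives and was lost without IFNARko replicate 2 (-1.48) or 3 (-1.42), USP18ko:IFNARko replicate 1, USP18ko replicate 1 or 3, or WT replicate 3 (-1.40 each), with only those 2 groups in the fit (adjusted p = 0.258) and with the replicate number as a block (adjusted p = 0.0732). The USP18ko:IFNARko call held in 8 of 23. It was lost with 10 of the 12 arrays left out in turn, the exceptions being IFNARko replicate 1 and WT replicate 2 (differences of -1.43 to -1.04 over all 12), and also with single probe sets (adjusted p = 0.113), the filter on low signal (0.0639), quantile normalization (0.0669), only 2 groups (0.511) and the block (0.119). The Usp18 probe set had a low level, at percentile 9.49 of all probe sets with 1 gene. In USP18ko against WT it fell by 0.63 (adjusted p = 0.0137, limma), a call that held in 16 of 22 alternatives. That call was lost with array weights, with only those 2 groups, and without USP18ko replicate 2 or 3 or WT replicate 1 or 2. The probe set read lower than WT in every knockout, IFNARko included (-0.68, adjusted p = 0.136), so it does not tell the knockouts apart. Of 12 interferon-stimulated genes, 10 were measured, and all 10 rose in USP18ko against WT (median 3.60), while 0 of the 10 were called in IFNARko (median -0.45) or USP18ko:IFNARko (median -0.36). IFNARko replicate 1 stood apart in RNA quality, with a beta-actin 3' minus 5' difference of 1.48 against 0.20 to 0.54 in the other 11 arrays. Sex-linked transcripts differed between samples as well: Xist was high, at 10.17 to 11.34, in the 3 USP18ko:IFNARko arrays and WT replicate 1, and the Y-linked Eif2s3y was high in the other 8 arrays and also, at 7.16, in USP18ko:IFNARko replicate 2. Neuronal markers averaged 10.93 to 11.59 on the log2 scale in IFNARko arrays and 11.44 to 11.53 in WT arrays, whereas pituitary markers averaged 4.87 to 5.20 in IFNARko arrays and 4.88 to 5.03 in WT arrays. Oligodendrocyte markers varied widely among the WT arrays: their mean was 8.01 to 8.80 in IFNARko, 8.58 to 8.84 in USP18ko:IFNARko and 7.72 to 9.04 in USP18ko, against 7.87, 10.49 and 7.14 in WT. WT also spread more than IFNARko in cerebellar markers (8.44 to 8.71 in IFNARko and 8.51 to 9.56 in WT) and microglial markers (7.19 to 7.31 in IFNARko and 6.88 to 7.80 in WT), and the part of tissue makeup in the differences from WT was not tested.

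Sequences of the 250 bases before the annotated gene start are shown for the genes whose signals separated all receptor-less from all receptor-intact arrays (Pnpla3, Epdr1 and Alox8), and for Kcnj9, which held a match to an interferon-linked motif. They are from RefSeq, assembly GRCm38.p6, written 5' to 3' on the strand of the gene. Pnpla3 lies at chr15:84167566-84167815 on the + strand, Epdr1 at chr13:19619831-19620080 on the - strand, Alox8 at chr11:69197844-69198093 on the - strand and Kcnj9 at chr1:172329323-172329572 on the - strand, each range being the printed window. Capitals mark a match to TTCNNNGAA, the gamma-activated site (GAS) to which STAT dimers bind.
Pnpla3: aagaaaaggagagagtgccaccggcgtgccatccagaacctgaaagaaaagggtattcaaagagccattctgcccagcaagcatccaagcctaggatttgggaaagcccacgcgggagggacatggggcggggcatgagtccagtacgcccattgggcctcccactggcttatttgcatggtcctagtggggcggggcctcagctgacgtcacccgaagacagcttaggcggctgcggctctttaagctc
Epdr1: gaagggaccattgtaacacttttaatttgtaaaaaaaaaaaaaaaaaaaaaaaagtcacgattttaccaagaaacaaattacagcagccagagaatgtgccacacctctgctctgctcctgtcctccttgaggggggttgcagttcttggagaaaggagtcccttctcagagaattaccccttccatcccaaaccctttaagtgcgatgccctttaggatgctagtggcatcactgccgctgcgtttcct
Alox8: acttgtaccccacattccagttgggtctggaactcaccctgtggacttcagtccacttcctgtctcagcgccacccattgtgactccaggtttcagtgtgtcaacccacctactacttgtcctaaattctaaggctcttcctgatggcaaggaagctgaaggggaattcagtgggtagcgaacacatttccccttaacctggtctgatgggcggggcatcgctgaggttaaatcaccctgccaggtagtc
Kcnj9: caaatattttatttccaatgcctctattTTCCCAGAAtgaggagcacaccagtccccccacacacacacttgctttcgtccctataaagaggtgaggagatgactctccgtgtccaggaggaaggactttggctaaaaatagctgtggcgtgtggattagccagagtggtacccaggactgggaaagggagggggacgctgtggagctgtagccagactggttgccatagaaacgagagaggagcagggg

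Windows were found for 7 of the 8 genes, 8 windows in all since Matn4 has a pair of annotated starts. Clec3b is named only. On both strands, the interferon-stimulated response element in its core form, GAAA, any 2 bases and GAAA again, matched 0 of these 8 windows and 2.98% of the 32851 windows of the mouse annotation. The GAS motif matched 1 window, that of Kcnj9, 222 bases before the start, and 7.02% of all windows. The windows ranged widely in composition, and among the printed ones the share of G and C was 58.4% for Pnpla3, 44% for Epdr1, 52.4% for Alox8 and 52% for Kcnj9. A match is a description of letters, and the absence of one concerns only these windows.

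Pnpla3, Epdr1 and Alox8 were the genes for which all 6 arrays without Ifnar1 lay on 1 side of all 6 arrays with it. Across the 12393 genes, 0.500% were lower in this way and 0.274% higher. As the choice of genes used these arrays, nothing is read from the count.

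Pnpla3 read 6.30, 5.27 and 5.62 in the IFNARko arrays and 5.62, 5.53 and 5.40 in the USP18ko:IFNARko arrays, against 6.77, 7.03 and 6.70 in the USP18ko arrays and 6.97, 7.06 and 6.99 in the WT arrays. The 6 receptor-less arrays were all low, and a gap of 0.41 separated the highest of them, IFNARko replicate 1, from the lowest array with the receptor gene. The differences in mean log2 signal from WT were -1.28 in IFNARko and -1.49 in USP18ko:IFNARko (SE 0.20 each). Without IFNARko replicate 1, the array of lower RNA quality, the IFNARko difference was -1.56. Set against USP18ko, which has the receptor gene, the difference of USP18ko:IFNARko was -1.32 (SE 0.20). Loss of Usp18 alone gave a difference from WT of -0.17 (95% interval -0.60 to 0.26, adjusted p = 1.00, limma). Among samples of like sex-linked signals, the difference was -1.30 for IFNARko against the WT pair with a Y-linked signal (n = 3 and 2). It was -1.45 for USP18ko:IFNARko replicates 1 and 3 against WT replicate 1 (n = 2 and 1). The part of sex in the Pnpla3 differences was not tested.

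On the brighter of its probe sets, 1450380_at, Epdr1 formed 4 steps, 1 for each genotype. It read 9.35, 9.37 and 9.20 in IFNARko and 9.18, 9.05 and 8.99 in USP18ko:IFNARko, against 9.46, 9.46 and 9.39 in USP18ko and 9.61, 9.89 and 9.56 in WT. No neighbouring groups overlapped, but the steps were small, and the receptor-less arrays stopped only 0.02 below the lowest receptor-intact one. The differences from WT were -0.38 in IFNARko, -0.61 in USP18ko:IFNARko (SE 0.11 each) and -0.25 in USP18ko (95% interval -0.49 to -0.01, unadjusted p = 0.0410 and adjusted p = 1.00, limma). The dimmer probe set, 1421815_at, read 6.19, 7.46 and 7.27 in IFNARko and 7.53, 7.52 and 7.31 in USP18ko:IFNARko, against 7.48, 7.81 and 7.79 in USP18ko and 7.65, 7.97 and 7.67 in WT. All 6 receptor-less arrays were again below WT on it, but they overlapped with USP18ko, and the low IFNARko value came from replicate 1. Without that array the IFNARko difference from WT on this probe set was -0.40 in place of -0.79. On it USP18ko:IFNARko stood 0.48 above IFNARko, against 0.23 below it on the brighter probe set, so the order of these 2 groups turned, as it did with the mean of both probe sets (0.12). The probe sets had a Pearson correlation of 0.381 over the 12 arrays.

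Alox8, the gene of an enzyme that in mouse oxygenates arachidonic acid, was the higher one of the 3. Its probe set read 5.32, 5.17 and 5.06 in IFNARko and 5.23, 5.19 and 5.16 in USP18ko:IFNARko, against 4.84, 4.74 and 5.03 in USP18ko and 4.65, 4.60 and 4.30 in WT. The receptor-less groups sat at the same level, WT lowest, and USP18ko between them, with a gap of 0.03 from USP18ko replicate 3 to the lowest receptor-less array. Differences from WT were 0.66 in IFNARko and 0.68 in USP18ko:IFNARko (SE 0.12 each), and 0.35 in USP18ko (95% interval 0.09 to 0.61, unadjusted p = 0.0117 and adjusted p = 0.494, limma). The average level of 4.94 lay at percentile 22.8 of all probe sets with 1 gene, and no detection call was used here, so a signal above background is not shown for this gene.

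**Figure D1:**
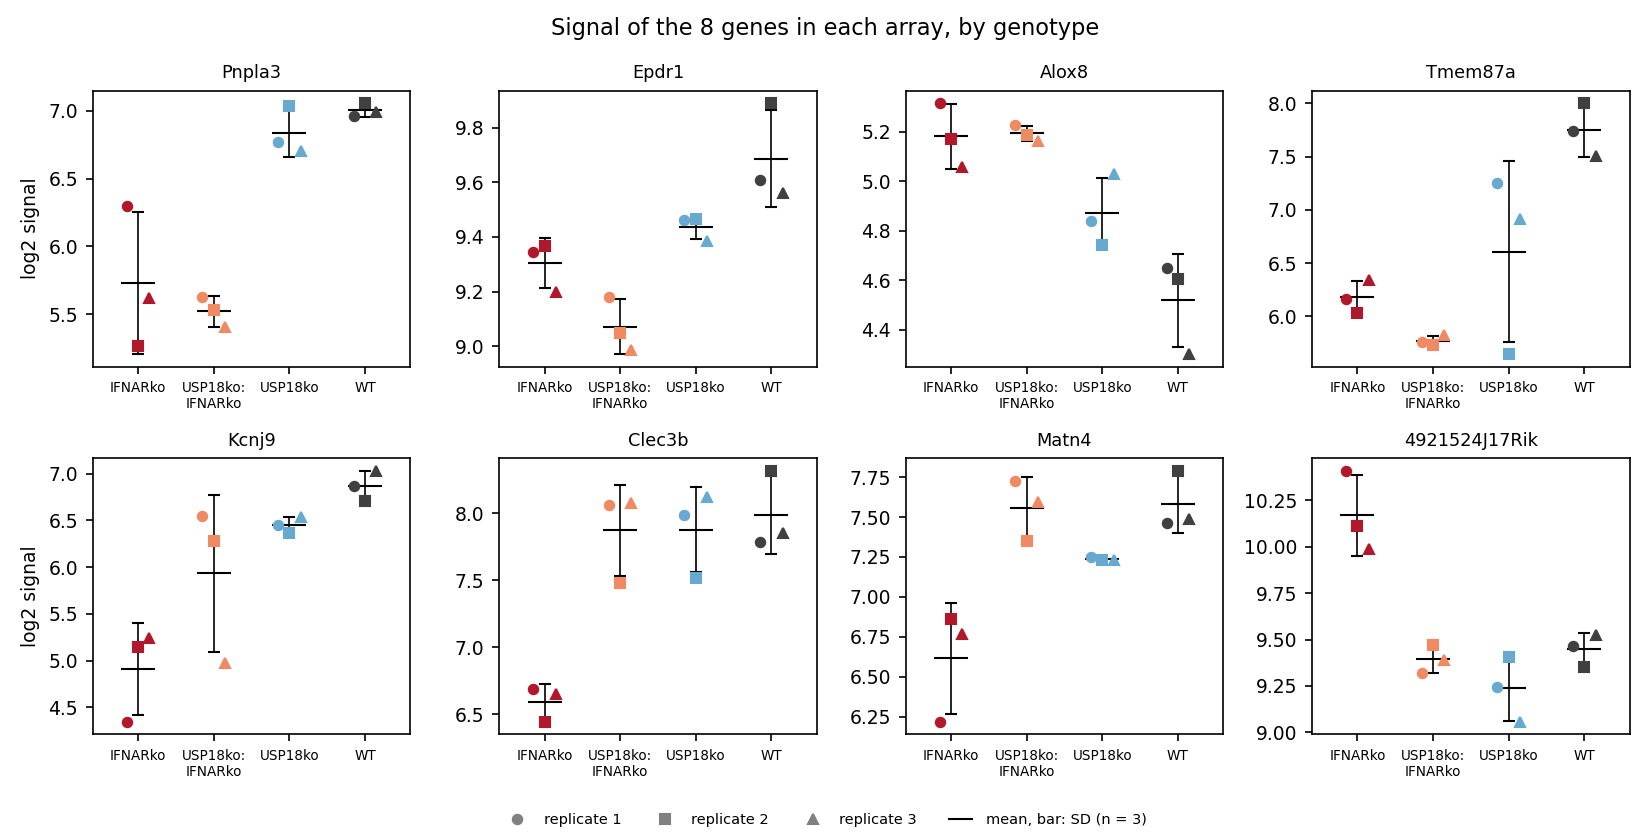
Log2 signal (vertical axes, each panel with its own range) of the 8 genes in each of the 12 arrays by genotype, with the marker shape giving the replicate, the line the mean and the bar the SD (n = 3). Pnpla3 and Epdr1 are lower and Alox8 higher in all 6 arrays without Ifnar1 than in the 6 with it, whereas Clec3b, Matn4 and 4921524J17Rik differ from the other 9 arrays in IFNARko only.

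Tmem87a and Kcnj9 were below WT in both receptor-less groups, but without a clean split from USP18ko. Together with Pnpla3 and Epdr1, 4 of the 8 genes were lower than WT in all 6 arrays, and Alox8 was higher in all 6. Over all genes the shares were 2.76% and 0.855%.

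Tmem87a had the largest difference from WT of the 8 genes in USP18ko:IFNARko. It read 6.17, 6.03 and 6.34 in IFNARko and 5.76, 5.73 and 5.82 in USP18ko:IFNARko, against 7.26, 5.65 and 6.92 in USP18ko and 7.74, 8.0 and 7.50 in WT. All 9 knockout arrays were below all WT arrays, as they were for Epdr1 and Kcnj9 on their brightest probe sets. For Alox8 all 9 were above WT. The share of all genes with such a pattern was not counted. The low signal of Tmem87a was thus not limited to brains without Ifnar1, and its lowest array of the 12 was USP18ko replicate 2. The differences from WT were -1.57 in IFNARko, -1.98 in USP18ko:IFNARko and -1.14 in USP18ko (SE 0.30 each), the last with a 95% interval of -1.80 to -0.49. In limma's test over all genes the USP18ko difference did not pass (unadjusted p = 0.00241, adjusted p = 0.157). It was -0.66 without USP18ko replicate 2 and -1.47 without USP18ko replicate 1. Among the alternatives it passed only without USP18ko replicate 1 (adjusted p = 0.0266, limma, range 0.0266 to 0.743). The genes were chosen against the same WT arrays, so nothing is read from these p-values.

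Kcnj9 was lowest in IFNARko. On its brightest probe set, 1450712_at, it read 4.35, 5.14 and 5.24 in IFNARko and 6.55, 6.27 and 4.98 in USP18ko:IFNARko, against 6.45, 6.37 and 6.54 in USP18ko and 6.87, 6.71 and 7.03 in WT. All 3 IFNARko arrays were low, while in USP18ko:IFNARko replicate 3 alone was at the IFNARko level and the other arrays were near USP18ko. The differences from WT were -1.96 in IFNARko, -0.94 in USP18ko:IFNARko and -0.42 in USP18ko (SE 0.33 each; USP18ko adjusted p = 1.00, limma, 95% interval -1.14 to 0.30). Without USP18ko:IFNARko replicate 3 the difference of that group was -0.46, about that of USP18ko.

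The other probe sets of Kcnj9 differed in what they showed. Probe set 1426115_a_at, of the kind that matches several transcripts of a gene, read 4.03, 4.11 and 3.89 in IFNARko and 4.67, 4.55 and 4.17 in USP18ko:IFNARko, against 4.45, 4.64 and 4.78 in USP18ko and 4.70, 4.60 and 4.98 in WT. It ordered the groups as the brightest one did and had a Pearson correlation of 0.911 with it over the 12 arrays, with smaller differences from WT of -0.75 in IFNARko and -0.29 in USP18ko:IFNARko. Probe set 1433029_at read 5.76, 5.40 and 5.39 in IFNARko and 5.41, 5.10 and 5.55 in USP18ko:IFNARko, against 5.57, 5.42 and 5.40 in USP18ko and 5.52, 5.31 and 5.47 in WT. All 4 groups overlapped on it, and its correlation with the brightest was -0.422. The annotation does not place the probe sets on transcripts, so which transcript each reads was not tested.

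**Figure D2:**
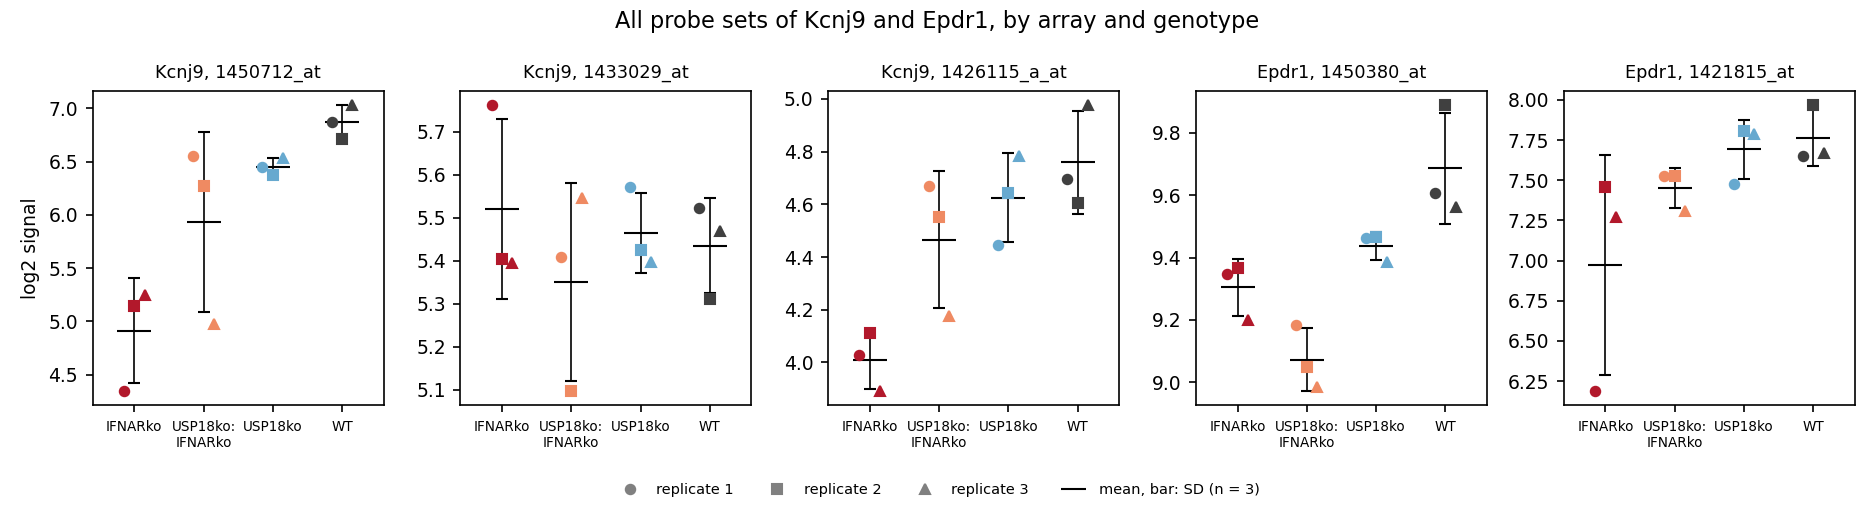
Log2 signal (vertical axes, each panel with its own range) of every probe set of Kcnj9 and Epdr1, the genes with more than 1, by genotype, with marker shapes for replicates, lines for means and bars for the SD (n = 3). Kcnj9 is lowest in IFNARko on 2 of its 3 probe sets and overlaps in all groups on 1433029_at.

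Clec3b, Matn4 and 4921524J17Rik were shifted in IFNARko and not in USP18ko:IFNARko. In each, all 3 IFNARko arrays lay beyond all other 9, which was the case for 1.11% of all genes on the lower side and 1.65% on the higher. The label under which the 8 genes were gathered, shifted without the receptor, therefore fits these 3 genes in only 1 of the receptor-less groups.

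Clec3b read 6.69, 6.45 and 6.65 in IFNARko and 8.06, 7.48 and 8.07 in USP18ko:IFNARko, against 7.98, 7.52 and 8.12 in USP18ko and 7.78, 8.32 and 7.85 in WT. The IFNARko arrays were low and close together, and the other 3 genotypes shared a range of 7.48 to 8.32. Differences from WT were -1.39 in IFNARko (SE 0.20), -0.11 in USP18ko:IFNARko and -0.11 in USP18ko (95% interval -0.54 to 0.32, adjusted p = 1.00, limma), and USP18ko:IFNARko stood 1.28 above IFNARko. The USP18ko difference was of either sign over the alternatives, between -0.23 and 0.07. Summed over 7 markers of meningeal fibroblasts, linear signals were 5134 to 5379 in IFNARko and 5263 to 5449 in USP18ko:IFNARko, against 4311 to 5799 in USP18ko and 4556 to 5039 in WT. These markers were thus somewhat higher where Clec3b was low and also where it was not, 0 of 7 passed in either group against WT, none of them was at 0, and their part in the Clec3b signal was not tested.

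Matn4 read 6.22, 6.86 and 6.77 in IFNARko and 7.73, 7.35 and 7.59 in USP18ko:IFNARko, against 7.25, 7.23 and 7.23 in USP18ko and 7.46, 7.79 and 7.49 in WT. Both single knockouts lay below WT without overlap, and the double knockout lay at the WT level. The differences from WT were -0.96 in IFNARko, -0.02 in USP18ko:IFNARko and -0.34 in USP18ko (SE 0.16 each), the last with a 95% interval of -0.70 to 0.01 (unadjusted p = 0.0567, adjusted p = 1.00, limma). IFNARko replicate 1 was the lowest array, and without it the IFNARko difference was -0.76. USP18ko:IFNARko was above USP18ko by 0.32 and above IFNARko by 0.94.

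4921524J17Rik read 10.41, 10.11 and 9.99 in IFNARko and 9.32, 9.47 and 9.39 in USP18ko:IFNARko, against 9.24, 9.41 and 9.06 in USP18ko and 9.47, 9.35 and 9.52 in WT. Only the IFNARko arrays were above 9.52. The differences from WT were 0.72 in IFNARko (SE 0.13), -0.05 in USP18ko:IFNARko and -0.21 in USP18ko (95% interval -0.49 to 0.06, adjusted p = 1.00, limma). IFNARko replicate 1 was the highest array, and without it the IFNARko difference was 0.60.

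Without WT replicate 2, the array highest in oligodendrocyte markers, the differences from WT in IFNARko were -1.25 for Pnpla3, -0.28 for Epdr1, 0.71 for Alox8, -1.44 for Tmem87a, -2.04 for Kcnj9, -1.22 for Clec3b, -0.86 for Matn4 and 0.68 for 4921524J17Rik. In USP18ko:IFNARko they were -1.46 for Pnpla3, -0.51 for Epdr1, 0.72 for Alox8, -1.85 for Tmem87a and -1.02 for Kcnj9, and 0.05, 0.08 and -0.10 for Clec3b, Matn4 and 4921524J17Rik. All 8 thus kept their direction in IFNARko without that array, and Clec3b and Matn4 turned in USP18ko:IFNARko.

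**Figure D3:**
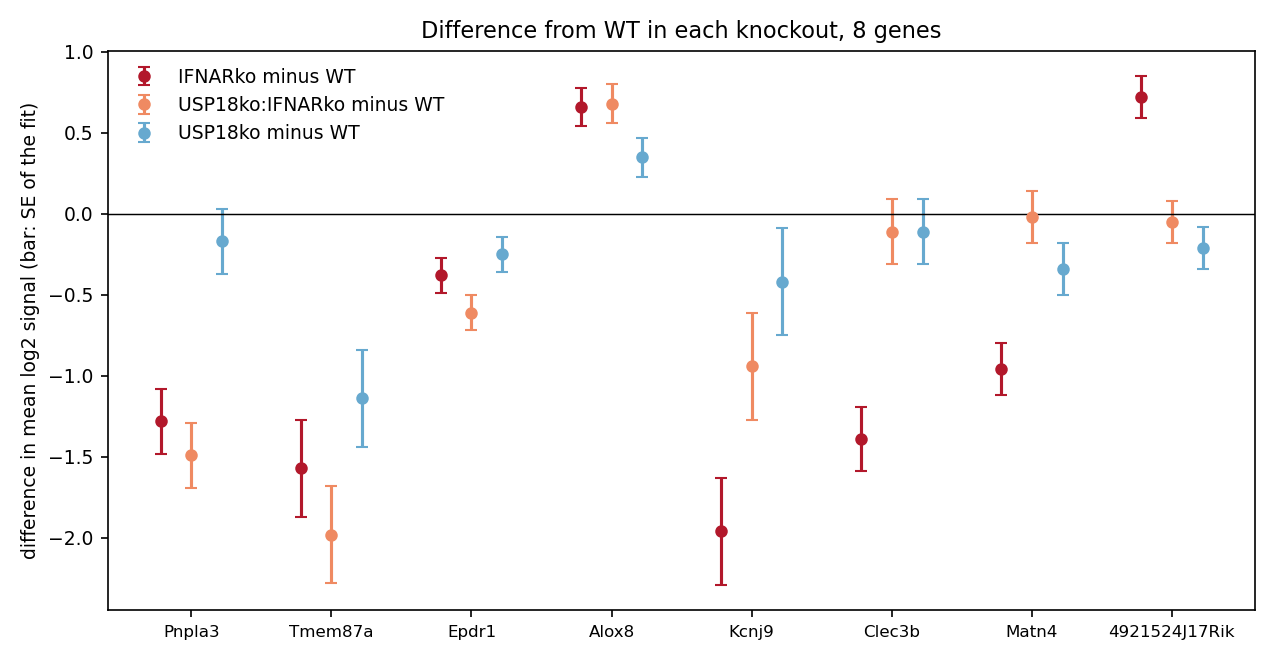
Difference in mean log2 signal from WT (vertical axis) for the 8 genes in IFNARko, USP18ko:IFNARko and USP18ko, with bars for the standard error of limma's fit of 12 arrays. Pnpla3, Tmem87a, Epdr1, Alox8 and Kcnj9 differ from WT in the same direction in both groups without Ifnar1, and Clec3b, Matn4 and 4921524J17Rik are near 0 in USP18ko:IFNARko.

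Loss of Usp18 alone was the contrast that did not choose the genes, though it uses the same WT arrays, so a high or low WT array moves all 3 differences of a gene together. Limma called 0 of the 8 genes in USP18ko against WT, where it called 1.15% of all genes, and 3 of the 8 had an unadjusted p under 0.05 (Tmem87a, Alox8 and Epdr1), as had 4.60% of all genes. The 3 USP18ko arrays lay all below WT for Matn4, Kcnj9, Tmem87a and Epdr1, as for 5.88% of all genes, and all above WT for Alox8, as for 4.07%. The median size of the difference was 0.30 over the 8 genes and 0.09 over all genes. Since the genes were chosen against the same WT arrays, nothing is read from these counts or medians. In the comparisons that chose the genes, limma called 0.00807% of all genes in IFNARko against WT and 0.0161% in USP18ko:IFNARko against WT. Single genotypes without overlap with WT were common there, with 6.74% of genes lower and 4.89% higher in IFNARko and 10.3% lower and 4.08% higher in USP18ko:IFNARko. All 8 genes were among these in IFNARko, 6 lower and 2 higher, and 5 in USP18ko:IFNARko, 4 lower and 1 higher.

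Receptor loss can also be read with Usp18 absent from both groups, USP18ko:IFNARko against USP18ko, where 1.51% of all genes were called. Pnpla3 (-1.32) and Epdr1 (-0.36) were lower and Alox8 (0.32) higher without overlap. Tmem87a (-0.84) and Kcnj9 (-0.52) were lower on average with overlapping arrays, and Tmem87a was at -1.32 without USP18ko replicate 2 and Kcnj9 at -0.04 without USP18ko:IFNARko replicate 3. Clec3b (0.00) and 4921524J17Rik (0.16) overlapped, and Matn4 (0.32) was higher without overlap, opposite to its difference in IFNARko against WT. The share of all genes without overlap in this comparison was not counted. Of the 48 nearest measured genes described below, 10 were lower and 5 higher in it without overlap. Nothing is therefore read from these separations. Between the receptor-less groups, USP18ko:IFNARko against IFNARko, limma called 0% of genes, with 1022 at an unadjusted p under 0.05. Sex-linked signals differed between USP18ko:IFNARko and both single knockouts, so in these comparisons genotype and sex cannot be told apart. Within samples of like sex-linked signals the differences from WT of USP18ko:IFNARko were -1.95 for Tmem87a, -1.11 for Kcnj9, -0.52 for Epdr1 and 0.55 for Alox8 (n = 2 and 1), and those of IFNARko were -1.57, -1.96, -0.42 and 0.73 (n = 3 and 2). For Clec3b, Matn4 and 4921524J17Rik they were 0.28, 0.20 and -0.11 in USP18ko:IFNARko, of the opposite sign to the full comparison for Clec3b and Matn4, and -1.49, -1.02 and 0.73 in IFNARko.

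Over the 12 arrays the 8 genes fell into loose sets by their signals, given here as Pearson correlations of points that share genotypes. Pnpla3, Tmem87a and Epdr1 varied together (0.709 to 0.818) and Alox8 varied against them (-0.742 to -0.786). Clec3b and Matn4 varied together (0.852), with 4921524J17Rik against both (-0.906 and -0.823). Between these sets the correlations ran from -0.450 to 0.460. Kcnj9 varied with genes of both, with 0.508 to 0.615 for Epdr1, Tmem87a and Pnpla3, -0.714 for Alox8, 0.698 for Clec3b, 0.730 for Matn4 and -0.765 for 4921524J17Rik.

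For each gene the 2 other genes of most similar signal over the 12 arrays were listed. Pnpla3 was most like Cbr3, a carbonyl reductase gene (Pearson 0.925, Spearman 0.825). Cbr3 read 7.54, 7.01 and 7.11 in IFNARko and 7.18, 7.29 and 7.09 in USP18ko:IFNARko, against 8.05, 7.92 and 7.80 in USP18ko and 7.75, 7.64 and 8.12 in WT, so its receptor-less arrays were also all below the others. Cbr3 lies on chromosome 16, 2.2 Mb from Ifnar1, the gene that was knocked out in these arrays. 4921524J17Rik was most like Tia1, an RNA-binding protein gene (0.953), and Cntn4, a neuronal adhesion gene (0.951). Cntn4 read 6.88, 6.49 and 6.54 in IFNARko and 5.42 to 6.15 in the other 9 arrays. The likest genes of the others had correlations of 0.924 (Clec3b with Hdhd3 and with Nudt22), 0.913 (Matn4 with Mrpl10), 0.901 (Kcnj9 with Slc35e4), 0.927 (Tmem87a with Rell2), 0.882 (Epdr1 with Plxdc1) and 0.920 (Alox8 with Washc2). The second likest were Hsd17b1 for Pnpla3, Pih1d1 for Matn4, Ncaph2 for Kcnj9, Pax9 for Tmem87a, Rell2 for Epdr1 and Foxf2 for Alox8, with correlations of 0.857 to 0.909. On chromosome 6, Washc2, Cntn4 and Tia1 lie 5.0, 15.6 and 34.8 Mb from Usp18. How many of all genes lie at such distances was not counted. The part of position in the signals of Cbr3 and these genes was not tested.

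The 8 genes lie on 7 chromosomes, with Matn4 and Tmem87a both on chromosome 2, and 0 of them share a chromosome with Ifnar1 (16) or Usp18 (6). The 3 nearest measured genes on each side of each gene, 48 in all, were examined for shifts of whole neighbourhoods. In IFNARko against WT and in USP18ko:IFNARko against WT limma called 0 of the 48, and 0.00807% and 0.0161% of all genes. In each, 6 of the 48 had an unadjusted p under 0.05, as had 9.79% of all genes in IFNARko and 4.09% in USP18ko:IFNARko. In USP18ko against WT, where 1.15% of all genes were called, it called 1 of the 48, Tspo, a mitochondrial outer membrane protein gene 604 kb from Pnpla3 and a marker of activated microglia, which rose by 1.43 (adjusted p = 0.00108). In USP18ko:IFNARko against USP18ko, where 1.51% of all genes were called, it called 3 of the 48: Tspo fell by 1.81 (adjusted p = 1.09e-04), as did Ehd4 near Tmem87a, an endocytic protein gene (-0.67, adjusted p = 0.0156) and Slamf9 near Kcnj9, of the SLAM family of immune receptors (-0.68, adjusted p = 0.0296). The Slamf9 call held in 13 of 22 alternatives and was lost without any of the 6 arrays compared (-0.74 to -0.59), with the Eif2s3y signal as a covariate (adjusted p = 0.319), with the replicate block (0.0628) and with median centring (0.0561). The Ehd4 call held in 16 of 22 and was lost without each of the 6 arrays but USP18ko replicate 1 (-0.70 to -0.59) and with the Eif2s3y covariate (adjusted p = 0.220). Sult4a1, 92 kb from Pnpla3 and named after its values were seen, read 6.36 in IFNARko replicate 1 and 9.33 or more in each other array, IFNARko replicates 2 and 3 included.

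Close to 4921524J17Rik, a pair of genes had its pattern. Of the 48 neighbours, this pair had the smallest p-values in either receptor-less group against WT, for which it was named. Orc6, a subunit of the origin recognition complex that lies 109 kb away, read 9.70, 9.22 and 9.24 in IFNARko and 8.31 to 8.96 in the other 9 arrays. Gpt2, the mitochondrial alanine aminotransferase gene 84 kb to the other side, read 9.38, 8.82 and 9.04 in IFNARko and 7.90 to 8.47 in the other 9. All 3 genes of this stretch were thus higher in IFNARko than in every other array, as were 1.65% of all genes. In each of them IFNARko replicate 1, the array of lower RNA quality, was the highest. Differences from WT were 0.81 for Orc6 (SE 0.18) and 0.70 for Gpt2 (SE 0.16). Each had adjusted p = 0.244 in limma's test and was not called. Gpt2 was at 0.55 without IFNARko replicate 1, and Orc6 at 0.65 or more with any single array left out. The probe set of Gpt2 is of a type that may also bind transcripts of other genes. The next measured genes outward, Vps35, Man2b1, Dnaja2 and Itfg1, had IFNARko differences from WT between -0.05 and 0.09. Next to Alox8, the lipoxygenase genes Alox12b (27 kb away) and Aloxe3 (58 kb) differed from WT by 0.07 and -0.05 in IFNARko and by 0.09 and -0.04 in USP18ko:IFNARko.

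**Figure D4:**
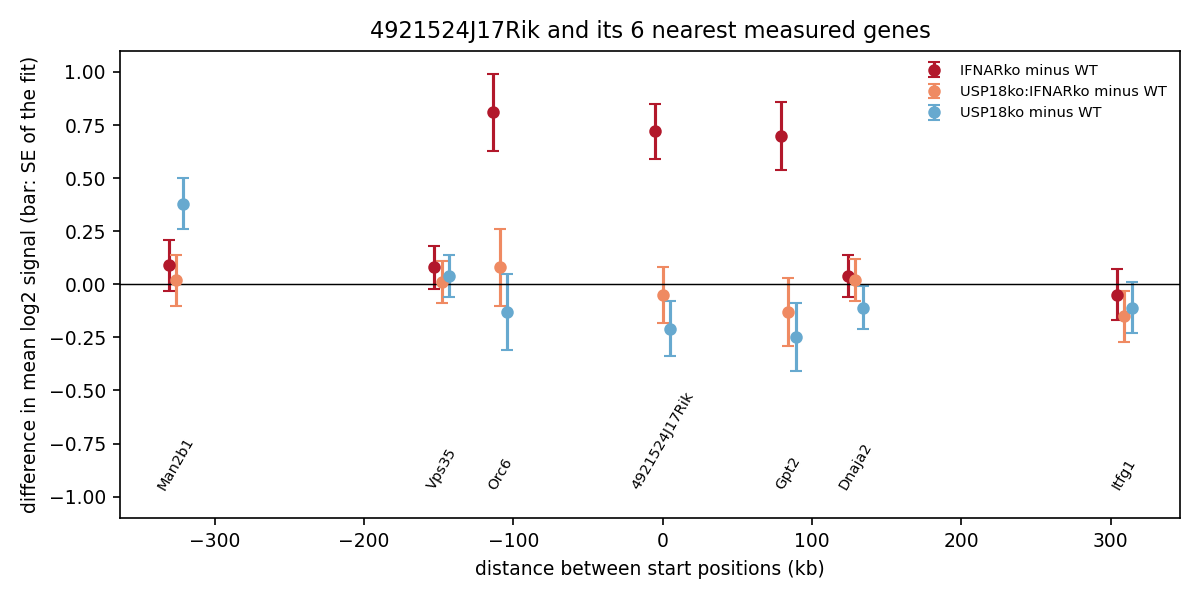
Difference in mean log2 signal from WT (vertical axis, bars for the standard error) of 4921524J17Rik and its 6 nearest measured genes, against the distance between start positions in kb, for IFNARko, USP18ko:IFNARko and USP18ko. Orc6, 4921524J17Rik and Gpt2 are at 0.70 to 0.81 in IFNARko and the 4 genes further out between -0.05 and 0.09.

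Genes related in function were examined from 6 lists of 83 genes, of which 66 were measured. Limma called 0 of the 66 in each of the 5 comparisons, with 2 to 4 per comparison at an unadjusted p under 0.05. Over all genes it called 0% to 1.51% per comparison, and 4.09% to 9.79% had an unadjusted p under 0.05. Differences of the 66 from WT ran from -0.73 to 0.64 in IFNARko and from -0.29 to 0.64 in USP18ko:IFNARko. Among 17 measured genes of patatin-like lipases, lipid droplets and fatty acid synthesis, beside Pnpla3, the median difference was 0.00 in IFNARko and -0.06 in USP18ko:IFNARko. Srebf1, whose product drives Pnpla3 in mouse liver, differed from WT by 0.07 and -0.01 in these groups. The triglyceride lipase gene Pnpla2 differed by -0.08 and -0.09. The acetyl-CoA carboxylase gene Acaca, at a low mean signal of 3.86, differed by 0.17 and 0.37 (adjusted p = 0.645 and 0.995, limma). Plin3, a lipid-droplet coat gene, was at 0.24 in USP18ko:IFNARko (adjusted p = 0.995). Limma called none of these lipid genes in IFNARko or USP18ko:IFNARko against WT, where it called 0.00807% and 0.0161% of all genes. Nothing is therefore read from the lack of calls in the list.

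The list for Kcnj9 had 12 measured genes, inward rectifiers and also Gabbr1. In it the G protein-gated channel genes Kcnj3 and Kcnj6 differed from WT in IFNARko by -0.11 and 0.16. The lowest in IFNARko was Kcnj4, of the strong inward rectifiers, at -0.73 (adjusted p = 0.501), and -0.30 without IFNARko replicate 1. Kcnj10, the glial Kir4.1 gene, was at -0.34 (adjusted p = 0.504). In the list of 13 matrix, matrilin and plasminogen genes, Matn2 differed from WT by -0.02 and Vcan, the proteoglycan versican, by 0.64 in IFNARko (SE 0.15, adjusted p = 0.244), and Vcan by 0.56 in USP18ko:IFNARko (adjusted p = 0.995). With the mean of its probe sets the IFNARko difference of Vcan was 0.19. Tnc, tenascin C, was at 0.64 in USP18ko:IFNARko (adjusted p = 0.995), at 1.02 without WT replicate 1, 0.33 without WT replicate 2 and 0.28 with the Eif2s3y covariate.

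The remaining lists were likewise without calls. Of 11 lipoxygenase and eicosanoid genes beside Alox8, Alox12e was at -0.22 in USP18ko:IFNARko (adjusted p = 0.995) and the prostaglandin E synthase gene Ptges at -0.25 in IFNARko (adjusted p = 0.508), which was -0.13 without IFNARko replicate 1 and 0.00 with the mean of its probe sets. Of 8 genes of ganglioside and lysosomal lipid handling, Hexa and Neu1, which encode a hexosaminidase subunit and a sialidase, were at -0.32 and -0.36 in IFNARko (adjusted p = 0.516 and 0.533), and at -0.12 and -0.08 without IFNARko replicate 1. Of 5 measured Golgi genes beside Tmem87a, the cargo receptor gene Tmed9 was at 0.13 and Gpr108 at -0.23 in IFNARko (adjusted p = 0.608 and 0.627).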

How the data were processed

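The 12 arrays hold RNA of 4 genotypes, 3 arrays each, grouped by the genotype in the labels. The authors deposited 1 log2 signal per probe set and array. The R package affy is named, per the submitters' processing notes. How background was corrected, how arrays were normalized, how probes were summarized and which version was used: not given in the sources used here. Base 2 was inferred from values of 2.36 to 13.81. Scanner files were not used here, so signals were not set against background, and array number limits the precision.

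Of 22690 probe sets, 64 were controls, 20380 had 1 gene in the platform's annotation (possibly outdated), 691 had several and 1555 were not listed there. Each gene was represented by its probe set of highest mean over the 12 arrays (12393 genes, 12369 with a RefSeq match), and every probe set of the 8 genes is reported. The 8 genes, the lists and the rules were chosen with earlier results of these data known. Genes were tested with limma 3.58.1 in R 4.3.3 in 1 fit of 12 arrays (8 residual and 4.67 prior degrees of freedom), two-sided, with Benjamini-Hochberg adjustment over all genes and calls at an adjusted p under 0.05. An exact test of 3 against 3 arrays cannot go below 0.1. The fit was tested on simulated data.

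For IFNARko and USP18ko:IFNARko against WT and for the comparisons between knockouts, the 8 genes are described without a test. They are tested in USP18ko against WT, while other genes are tested everywhere. Also named are Usp18, Ifnar1, called relatives and neighbours, the 2 relatives of each list, and 2 neighbours, of smallest p in either receptor-less group against WT, and the 2 genes most correlated with each of the 8. Further relatives and neighbours were named after their values were seen. Groups are called separate where no arrays overlap. Motifs were searched on both strands of the 250 bases before each RefSeq start (GRCm38.p6). Alternatives were the mean of probe sets, single probe sets, a filter at the 40th percentile, quantile normalization, median centring, array weights, trended robust variance, 2 groups only, the replicate number as a block, Eif2s3y as a covariate and arrays left out.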

Additional observations from a re-analysis of the deposited data

Results flagged for a closer look

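The mean differences of Matn4 under the same genotype change had opposite signs on the 2 backgrounds. With the receptor gene removed, its log2 difference was -0.96 in IFNARko against WT, with all 3 arrays lower, and 0.32 in USP18ko:IFNARko against USP18ko, with all 3 arrays higher (95% intervals -1.32 to -0.61 and -0.03 to 0.67). With Usp18 removed, it was -0.34 in USP18ko against WT, with all 3 arrays lower, and 0.94 in USP18ko:IFNARko against IFNARko, with all 3 higher (-0.70 to 0.01 and 0.59 to 1.29). Of the 4 intervals, 2 include 0. Nothing is read from the other 2 excluding 0, as arrays that chose the gene enter them. In both comparisons of USP18ko:IFNARko with another knockout, genotype and sex cannot be told apart. Between the USP18ko:IFNARko and USP18ko arrays the gap was 0.10. Only the 8 genes and the other named genes were searched for such opposite shifts, and their share among all genes was not counted. The difference between the backgrounds was not tested, since these arrays chose the gene.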

How the results depend on the processing

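No call at a 5% false discovery rate was made for any of the 8 genes in USP18ko against WT, with a single exception. That was Tmem87a without USP18ko replicate 1 (-1.47, adjusted p = 0.0266, limma). The genes were chosen against the same WT arrays, so nothing is read from that call. Directions turned for Clec3b in USP18ko against WT, at 0.07 without USP18ko replicate 2 and 0.06 without WT replicate 2 (range with an array left out -0.23 to 0.07), and for Gpr108 in IFNARko against WT, at 0.02 without IFNARko replicate 1 (range -0.39 to 0.02). In USP18ko:IFNARko against WT, Clec3b and Matn4 turned, to 0.08 each without USP18ko:IFNARko replicate 2 and to 0.05 and 0.08 without WT replicate 2. Between the receptor-less groups Epdr1 (-0.23) turned to 0.12 with averaged probe sets, Pnpla3 (-0.21) to 0.07 without IFNARko replicate 1, alone or with WT replicate 1, and Alox8 (0.01) to -0.08 to -0.01 in 3 settings. Clec3b in USP18ko:IFNARko against USP18ko (0.00) ran from -0.18 to 0.19. Averaging probe sets moved Kcnj9 to -0.87 in IFNARko and -0.44 in USP18ko:IFNARko against WT, and Epdr1 to -0.59 and -0.46. Pnpla3, Epdr1 and Alox8 separated the 6 receptor-less from the other arrays in the 14 settings in which this was recomputed (quantile normalization, averaged probe sets and each array left out), with Kcnj9 added without USP18ko:IFNARko replicate 1 and Tmem87a without USP18ko replicate 2. On the dimmer Epdr1 probe set the groups overlapped. Genes in all that separated them numbered 96, and 109 to 297 with an array left out (237 without IFNARko replicate 1, 162 without USP18ko:IFNARko replicate 1, 148 without USP18ko:IFNARko replicate 3, 195 without USP18ko replicate 2, and 297, 170 and 146 without WT replicates 1, 2 and 3), since fewer arrays can overlap.

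Genes called over all were 143 in USP18ko, 1 in IFNARko and 2 in USP18ko:IFNARko against WT, and 187 in USP18ko:IFNARko against USP18ko and 0 against IFNARko. Single probe sets gave 3 in IFNARko and 0 in USP18ko:IFNARko against WT. The filter on low signal, which removes 4 of the 8 genes, Pnpla3, Kcnj9, Tmem87a and Alox8, gave 28 in USP18ko and 0 in USP18ko:IFNARko against WT and 37 in USP18ko:IFNARko against USP18ko. Quantile normalization gave 0 in USP18ko:IFNARko against WT. Array weights, whose iteration stopped before convergence, gave 2 in IFNARko against WT, 500 in USP18ko:IFNARko against USP18ko and 814 against IFNARko. Only the 2 groups compared gave 0, 287 and 2 in the same order. The replicate number as a block gave 0 in IFNARko and 0 in USP18ko:IFNARko against WT. Same-numbered arrays had correlations of deviations of -0.148 to 0.273, with 6 of 18 pairs over 0.1 (7 of 36 for different numbers). Since not every same-numbered pair was over 0.1, the numbers were not taken to pair samples, although 8 of 12 arrays correlated best with their own number. The Eif2s3y covariate gave 1 in USP18ko:IFNARko against WT and 124 against USP18ko. Without both IFNARko replicate 1 and WT replicate 1 there were 11 in IFNARko and 58 in USP18ko:IFNARko against WT, 311 in USP18ko:IFNARko against USP18ko and 1 against IFNARko. Arrays left out in turn gave 117 to 184 in USP18ko, 0 to 5 in IFNARko and 0 to 3 in USP18ko:IFNARko against WT, and 139 to 239 in USP18ko:IFNARko against USP18ko and 0 to 3 against IFNARko. The cause of these movements was not tested. Of the values for single genes under the alternatives, 1424 kept direction and side of the threshold or moved by less than the spread. Without scanner files, detection of the low signals of Alox8 and Kcnj9 is unknown.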
